A study of Mus musculus with 6 samples.

Results

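The genes followed across the cells of the striatum were *Slc1a2*, *Slc1a3*, *Slc1a1*, *Slc6a11*, *Slc6a9* and *Glul*, called uptake genes here. The carriers among them clear glutamate, GABA and glycine from the space around synapses, while *Glul* encodes the enzyme that turns glutamate into glutamine. The genes were chosen by name for their function, and all 6 were found among the 32285 genes of the count table. The series holds 6 single-cell RNA-Seq libraries of male wild-type C57BL/6 mice, 3 from postnatal day 3 (P3) and 3 from young adults of 3 months (3m). Cells of the dissociated striatum were enriched on anti-ACSA2 magnetic beads, which bind astrocytes, and libraries were made with 10x Chromium 3′ chemistry. The libraries of an age came from independent preparations, and by the study's methods each preparation pooled the brains of several animals, so the p-values measure the spread between preparations and not between single animals.

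The deposited annotation holds 14373 of 16690 barcodes in 24 clusters, of which 9992 cells were astroglial (1118 at 3m, 8874 at P3) and fell into 17 sub-clusters. Libraries held 5471573 to 10522151 UMIs (unique molecular identifiers, 1 for each captured transcript) at 3m and 32193875 to 37795021 at P3. Annotated astroglial cells gave between 11.0% and 26.9% of all UMIs of a 3m library and between 69.0% and 81.0% of a P3 library, with barcodes outside the annotation counted in the totals. In 3m replicate 1 the annotation held 801 of 1653 barcodes and 6606846 of 10522151 UMIs. In all, 37 barcodes were shared between pairs of libraries. Several sub-clusters came almost wholly from 1 library, namely 1 (95.5% from P3 replicate 1), 4 and 12 (97.8% and 96.1% from P3 replicate 3) and 14 (98.9% from 3m replicate 1). In the 3m astroglial sums the 8 oligodendrocyte markers added up to between 721 and 1893 CPM (counts per 1000000 UMIs) and all 8 were detected, against between 5.91 and 6.99 CPM at P3, where *Mog* and *Opalin* were at 0.

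Glutamate released by neurons is taken up mainly by astrocytes through sodium-coupled carriers, where glutamine synthetase turns it into glutamine that is handed back to neurons. *Slc1a2* encodes GLT-1 and *Slc1a3* encodes GLAST, the main astrocytic glutamate carriers, while *Slc1a1* encodes EAAC1, the carrier best known from neurons. *Slc6a11* encodes the astrocytic GABA carrier GAT3, *Slc6a9* the glycine carrier GlyT1, and *Glul* glutamine synthetase.

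In the genome build of the count table (mm10, equal to GRCm38; positions from GENCODE M21) *Slc1a2* lies on the plus strand at chr2:102658659-102790784, *Slc1a3* on the minus strand at chr15:8634124-8710764 and *Slc1a1* on the plus strand at chr19:28835049-28913960. *Slc6a11* lies on the plus strand at chr6:114131241-114249952, *Slc6a9* on the plus strand at chr4:117834506-117875198 and *Glul* on the plus strand at chr1:153899944-153909723. Each is protein coding, and each overlaps at least 1 other annotated gene: *Glul* overlaps *Teddm2* on the opposite strand, and *Slc6a9* overlaps *Ccdc24* and *B4galt2* on the opposite strand.

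Since *Slc1a2*, *Slc1a3* and *Slc6a11* were all high in astroglial cells while only the first was called between ages, the bases upstream of their RefSeq starts (GRCm38.p6) are shown, 5′ to 3′ on the strand of the gene and without annotated exons. Capitals mark AGGTCA, the half-site of nuclear receptors, and GGGCGG, the GC box, on either strand. The stretch of *Slc1a2*, chr2:102706188-102706355, has 168 bases and ends 82 bases before that start, which lies inside the annotated gene. Those of *Slc6a11* (chr6:114130991-114131240) and *Slc1a3* (chr15:8710808-8711057, minus strand) have 250 bases each and end at the start.
Slc1a2: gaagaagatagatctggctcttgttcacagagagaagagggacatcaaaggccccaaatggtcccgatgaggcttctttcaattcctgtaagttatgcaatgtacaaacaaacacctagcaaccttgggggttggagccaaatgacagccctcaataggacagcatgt
Slc6a11: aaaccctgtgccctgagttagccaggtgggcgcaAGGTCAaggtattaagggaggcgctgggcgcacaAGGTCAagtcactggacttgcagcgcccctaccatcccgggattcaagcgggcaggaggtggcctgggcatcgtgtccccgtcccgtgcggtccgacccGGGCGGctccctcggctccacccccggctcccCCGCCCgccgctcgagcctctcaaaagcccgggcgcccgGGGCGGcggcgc
Slc1a3: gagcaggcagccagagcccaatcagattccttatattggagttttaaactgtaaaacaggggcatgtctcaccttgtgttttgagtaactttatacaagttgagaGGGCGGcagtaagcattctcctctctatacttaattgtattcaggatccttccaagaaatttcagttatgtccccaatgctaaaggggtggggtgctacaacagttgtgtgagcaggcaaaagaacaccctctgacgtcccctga
Among the 250 bases before each of 32851 mouse starts in the RefSeq table, 14.02% held AGGTCA, 32.7% held GGGCGG and 4.84% held TAATTA, the core bound by homeodomain factors, on either strand. *Slc6a11* held 2 matches to AGGTCA and 3 to GGGCGG, and its stretch was 71.2% G and C. *Slc1a3* held 1 match to GGGCGG in a stretch of 44.8% G and C. The shown bases of *Slc1a2* held none of the 3 motifs (46.4% G and C), and TAATTA was found before none of the 3 starts. Before the start of *Glul*, the other gene called between ages, whose bases are not shown, lay 1 match to AGGTCA and 1 to GGGCGG. A match or its absence describes these letters only.

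The age comparison asks how the uptake genes differ between immature and mature astrocytes. In the summed counts of astroglial cells, *Slc1a2* and *Glul* rose about 4-fold from P3 to 3m, whereas the other glutamate carrier, *Slc1a3*, differed by less than the 2-fold required of a call and neither the GABA nor the glycine carrier was called. *Slc1a2* stood at 4705, 4883 and 4837 CPM in the 3m libraries and at 1375, 898 and 1103 CPM in the P3 libraries. Every adult library lay above every P3 library, and the means were 4809 ± 92.6 and 1126 ± 239 CPM (SD, n = 3 each), a 4.27-fold difference in mean CPM (log2 2.29, SE 0.25, adjusted p = 7.02e-06, edgeR quasi-likelihood test). Folds here are ratios of mean CPM, while log2 differences are edgeR estimates with scaling factors, so they differ in size. *Glul* stood at 2642, 2747 and 2825 CPM at 3m and at 592, 608 and 897 CPM at P3. Its adult libraries again lay apart from the P3 libraries, 3.92-fold higher in mean (log2 2.17, SE 0.23, adjusted p = 7.01e-06, edgeR). These were 2 calls among the 5 uptake genes that could be tested, both upward. A call required an adjusted p of 0.05 or less and a 2-fold difference. Of the 13530 genes tested, 32.1% were called, 15.8% higher at 3m (2140 genes) and 16.3% lower (2204 genes). Without scaling factors these counts became 1753 and 2790, and the median log2 difference of all genes moved from -0.04 to -0.24.

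*Slc1a3* stood at 2513, 2779 and 2628 CPM at 3m and at 2082, 1864 and 2143 CPM at P3. The ages did not overlap, as for 21.3% of all genes tested in the direction of higher at 3m (37.7% in the other), but the difference was 1.30-fold in mean (log2 0.57, SE 0.21, adjusted p = 0.0403, edgeR). Without the cycling sub-clusters 6 and 8 it was 0.42 with an adjusted p of 0.145 (edgeR). The GABA carrier *Slc6a11* stood at 341, 781 and 357 CPM at 3m and at 381, 263 and 320 CPM at P3. The ages overlapped, and 3m replicate 2 alone was high. The log2 difference of 0.82 (SE 0.29, adjusted p = 0.0305, edgeR) fell to 0.26 without 3m replicate 2, with an adjusted p of 0.348. The glycine carrier *Slc6a9* stood at 53.6, 97.6 and 61.1 CPM at 3m and at 81.7, 65.7 and 75.2 CPM at P3, with overlapping ages. Its log2 difference was 0.15 (SE 0.21, adjusted p = 0.594, edgeR), although its mean CPM was slightly lower at 3m (70.8 against 74.2). It was -0.051 without scaling factors and -0.23 without 3m replicate 2.

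*Slc1a1* was nearly absent from astroglial cells. It gave 2 UMIs in the 4473981 UMIs of the 3m astroglial cells, both in 3m replicate 2, and 33 in 77526661 UMIs at P3, and it did not pass the filter on low counts.

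**Figure D1:**
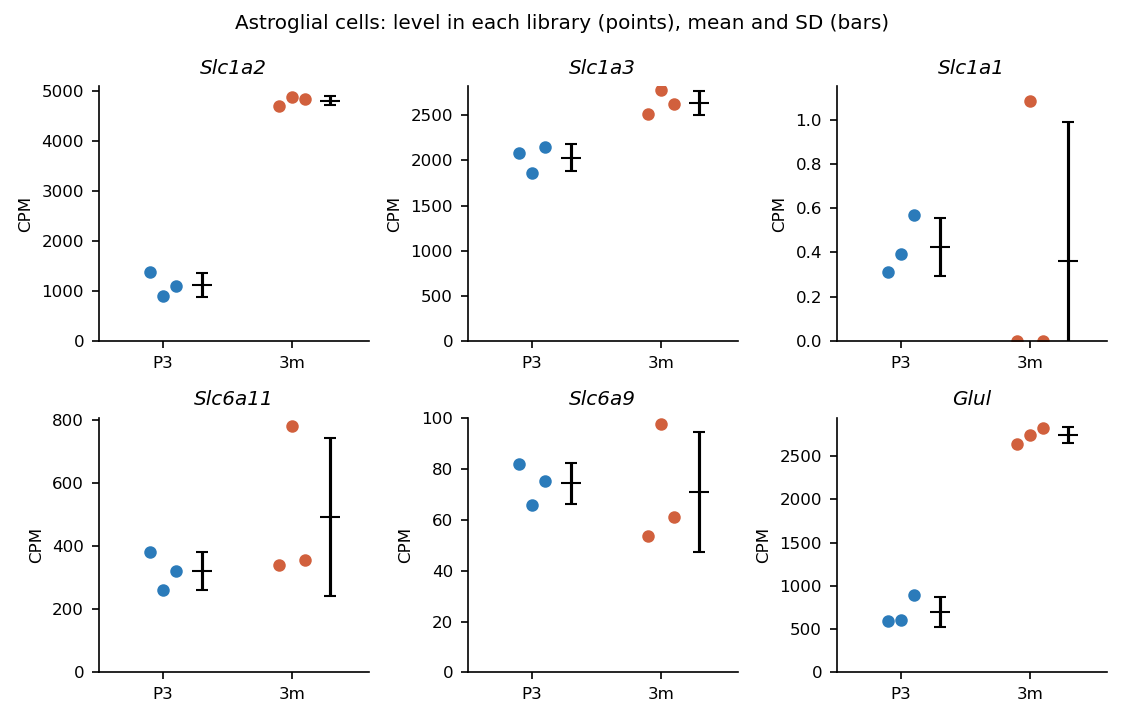
Level of each uptake gene in astroglial cells, in CPM, with 1 point per library at P3 and 3m and the mean ± SD beside the points. For *Slc1a2* and *Glul* the adult points lie far above the P3 points, for *Slc1a3* they lie just above, and for *Slc6a11* 1 adult library (781 CPM) stands above all others.

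Oligodendrocyte RNA moved with age in the same sums, and *Glul* and *Slc6a9* are also present in oligodendrocytes. Leaving out cells with at least 2 of *Mog*, *Mag*, *Mobp*, *Opalin* and *Ermn* gave log2 differences of 2.28 for *Slc1a2*, 2.16 for *Glul*, 0.59 for *Slc1a3*, 0.72 for *Slc6a11* and 0.03 for *Slc6a9*. The calls were as before, and the adjusted p of *Slc6a11* was then 0.073 (edgeR).

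The share of astroglial cells with at least 1 UMI was compared at equal depth, with each cell thinned to 2000 UMIs. *Slc1a2* was found in 99.6% ± 0.50 of cells at 3m and 74.4% ± 6.36 at P3 (SD, n = 3 libraries each), and *Glul* in 98.0% ± 0.53 and 69.7% ± 5.35. *Slc1a3* was found in 97.1% ± 1.53 of cells at 3m and 94.2% ± 1.27 at P3. For these 3 genes every adult library lay above every P3 library, and the exact permutation test gave p = 0.1, the smallest that 3 against 3 libraries allow and one that 15.9% of all genes tested reached toward higher and 34.2% toward lower at 3m by not overlapping (0.2 after Benjamini-Hochberg adjustment over 6 genes, two-sided). *Slc6a11* was found in 44.6% ± 8.89 and 42.5% ± 8.02 of cells (exact permutation p = 0.7), and *Slc6a9* in 11.9% ± 3.73 and 13.7% ± 1.89 (exact permutation p = 0.5). *Slc1a1* was found in none of the thinned 3m cells and in 0.035% of P3 cells. Background for *Slc1a2* and *Slc1a3* was read from endothelial cells. In the endothelial cells of 5 libraries, *Slc1a2* was found in between 1.08% and 14.3% of thinned cells and *Slc1a3* in between 2.38% and 13.5%. In P3 replicate 3 they were found in 15.7% and 23.1%. *Glul* was found in between 25.9% and 78.6% of endothelial cells, a range that takes in its share in P3 astroglial cells. Its endothelial level was 905 ± 111 CPM at 3m and 196 ± 18.7 CPM at P3, so these cells give no background for *Glul*. The median depth of these cells before thinning was between 3605 and 9811 UMIs per library for astroglial and between 5061.5 and 32269 UMIs for endothelial cells. Thinning left out 212 astroglial cells at 3m and 1113 at P3. Without thinning the difference between ages was 8.41 percentage points for *Slc1a2*, 8.49 for *Glul*, -1.68 for *Slc1a3*, -15.3 for *Slc6a11* and -21.6 for *Slc6a9*.

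Across all cell types the levels described here follow from clusters drawn on the same counts and are given without a test. *Slc1a2* was highest in the adult astrocyte clusters AST_3m_14 and AST_3m_5, at 5038 and 4751 CPM over pooled libraries, followed by the main P3 astrocyte cluster AST_P3_0 at 1863 CPM. It was between 301 and 1111 CPM in the other P3 astrocyte clusters and 499.97 and 510.5 CPM in the glial progenitor clusters GPC_8 and GPC_9. *Slc1a3* was highest in AST_P3_0 (2827 CPM), with AST_3m_5 (2713 CPM), AST_3m_14 (2520 CPM) and AST_P3_15 (2510 CPM) next to it. These 4 clusters differed little, and the glial progenitors still held 1105 and 1139 CPM. END_12, labelled endothelial, held 1143 CPM of *Slc1a3*, together with 1998 CPM summed over 6 astrocyte markers and 82998 CPM of haemoglobin genes.

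*Glul* was found well outside astroglia too. It reached 2761 CPM in AST_3m_5 and 2675 CPM in AST_3m_14, and oligodendrocytes came close with 2188 CPM in ODC_2 and 1763 CPM in ODC_10. In the 3m libraries the oligodendrocyte level was between 71.2% and 77.6% of the astroglial level of the same library. Adult endothelial cells (END_17) held 876 CPM of *Glul*, neonatal endothelial cells (END_7) 184 CPM and microglia 505 CPM. In endothelial clusters *Glul* was 905 ± 111 CPM at 3m and 196 ± 18.7 CPM at P3 (SD, n = 3 each), in clusters that differ between the ages, while in unidentified cells (LOW) it was 79.4 and 97.1 CPM.

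*Slc6a11* was highest in AST_3m_14 (1414 CPM) and AST_P3_15 (1151 CPM), several-fold above AST_P3_0 (423 CPM) and AST_3m_5 (241 CPM). The same pair led for *Slc6a9*, with 197 and 220 CPM, followed by AST_P3_0 (110 CPM) and both oligodendrocyte clusters (96.4 and 95.9 CPM). Oligodendrocytes held 95.6 ± 3.32 CPM of *Slc6a9* (n = 3), equal to between 99.1% and 183% of the astroglial level, but 14.05 ± 11.7 CPM of *Slc6a11*. *Slc1a1* was found in adult endothelial cells (END_17, 65.8, 97.3 and 127 CPM in the 3 adult libraries), oligodendrocyte precursors (78.2 CPM) and neonatal endothelial cells (28.3 CPM), and was at most 2.49 CPM in any astrocyte cluster. In the neuron cluster NEU_22, of 53 cells, it was 11.4 CPM.

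**Figure D2:**
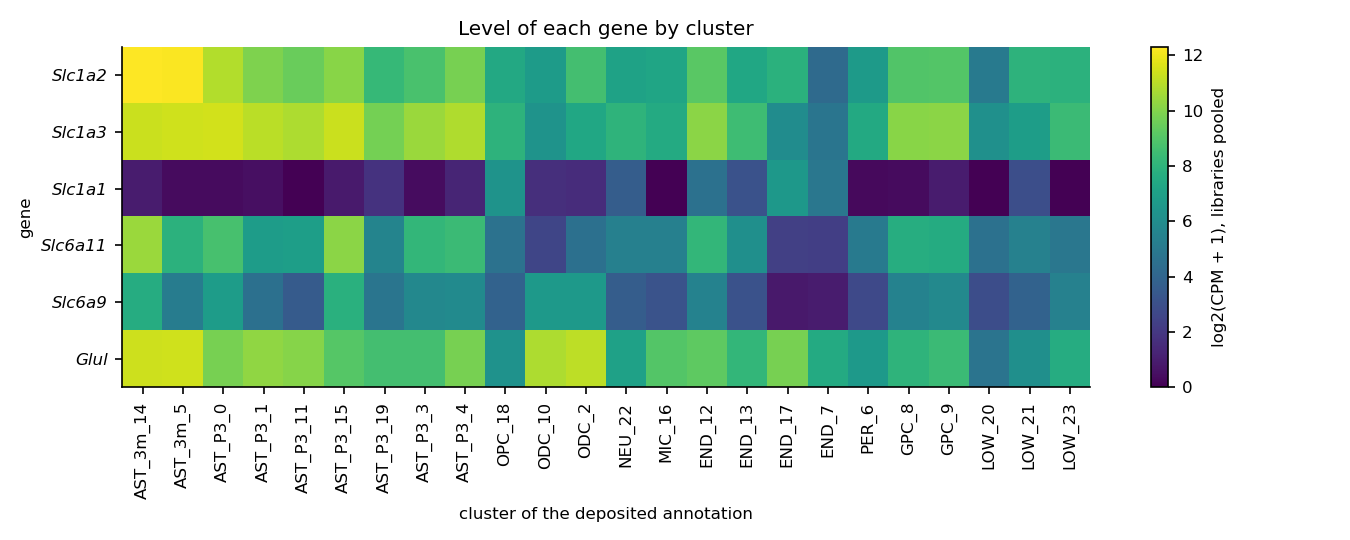
Level of each uptake gene, as log2(CPM + 1) over pooled libraries (colour), in each cluster of the deposited annotation (columns; AST astrocyte, GPC glial progenitor, ODC oligodendrocyte, OPC its precursor, MIC microglia, END endothelial, PER pericyte, NEU neuron, LOW unidentified). *Slc1a2* and *Slc1a3* are bright across astrocyte clusters, *Glul* also in ODC, and *Slc1a1* in END_17, OPC_18 and END_7.

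The genes most alike were sought over the 23 clusters with at least 50 cells, as Pearson correlations of log2(CPM + 1), a description over points that share libraries. *Slc1a2* was nearest to *Aldoc* (r = 0.95), *Acsl6* (0.95) and *Ndrg2* (0.94), and *Slc1a3* to *Mmd2* (0.98), *Plpp3* (0.98) and *Mlc1* (0.98). *Slc6a11* was nearest to *Slc4a4* (0.97), a bicarbonate carrier, *Slc7a10* (0.97) and the water channel *Aqp4* (0.96). *Slc6a9* was nearest to *Phyhipl* (0.92) and the fatty acid desaturases *Scd1* (0.91) and *Scd2* (0.89). *Glul* was nearest to *Hist1h2bc* (0.88), *Lap3* (0.86) and *Plaat3* (0.86), and *Slc1a1* to *Sh3bp4* (0.83), *Slc35f2* (0.83) and *Impdh1* (0.81).

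The GABA and glycine carriers varied widely among astroglial sub-clusters. For the age comparison the sub-clusters were put in 2 sets. The second set is made of P3 sub-clusters 3, 4, 5, 10, 12 and 15 and adult sub-clusters 13 and 16, which the paper describes as resembling astrocytes from outside the telencephalon. The first set is made of the remaining sub-clusters that are not cycling, 0, 1, 2, 9 and 11 at P3 and 7 and 14 at 3m. *Lhx2*, a forebrain transcription factor, was 233 ± 22.2 CPM in the second set and 102 ± 12.2 CPM in the first at P3. At 3m *Lhx2* was 47.7 ± 15.1 CPM in the second set and 246 ± 15.1 CPM in the first (n = 3 throughout). *Lhx2* was thus higher in the second set at P3 and in the first at 3m, and the sets are named here by their order.

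Sub-cluster 11 at P3 and sub-cluster 13 at 3m, which stand in different sets, had the highest levels of both carriers. In sub-cluster 11 *Slc6a11* stood at 1387, 1027 and 1311 CPM and *Slc6a9* at 236, 208 and 256 CPM in the P3 libraries. In sub-cluster 13 *Slc6a11* stood at 1630 and 1270 CPM and *Slc6a9* at 218 and 261 CPM in 3m replicates 2 and 3, while 3m replicate 1 had 3 cells there. The pair also shared low *Lhx2* (22.2 and 31.2 CPM) and high *Agt* (angiotensinogen; 917 and 1104 CPM, a gene chosen after its values were seen). In the main sub-clusters 0 and 1 at P3 *Slc6a11* was 401 and 455 CPM, and in 7 and 14 at 3m it was 214 and 271 CPM. *Slc6a9* was 110 and 106 CPM in 0 and 1, and 26.0 and 43.0 CPM in 7 and 14. The lowest *Slc6a11* was in sub-clusters 15, 3, 10 and 5 of P3 (48.7, 104, 112 and 133 CPM), where *Glul* was 479, 1308, 1122 and 1193 CPM. Sub-cluster 15 also held 987 CPM of multiciliated and 395 CPM of cycling markers. Sub-clusters 4 and 12 held 516 and 405 CPM of cycling markers, at median depths of 1048 and 985.5 UMIs. In 12, mural markers summed to 2341 CPM and endothelial markers to 581 CPM. Sub-cluster 16 held 599 CPM of *Slc6a11*, with all 8 oligodendrocyte markers summing to 16122 CPM against 1378 CPM in sub-cluster 13, and it held 1918 CPM summed over the 6 astrocyte markers, so its markers go against a purely astroglial label.

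**Figure D3:**
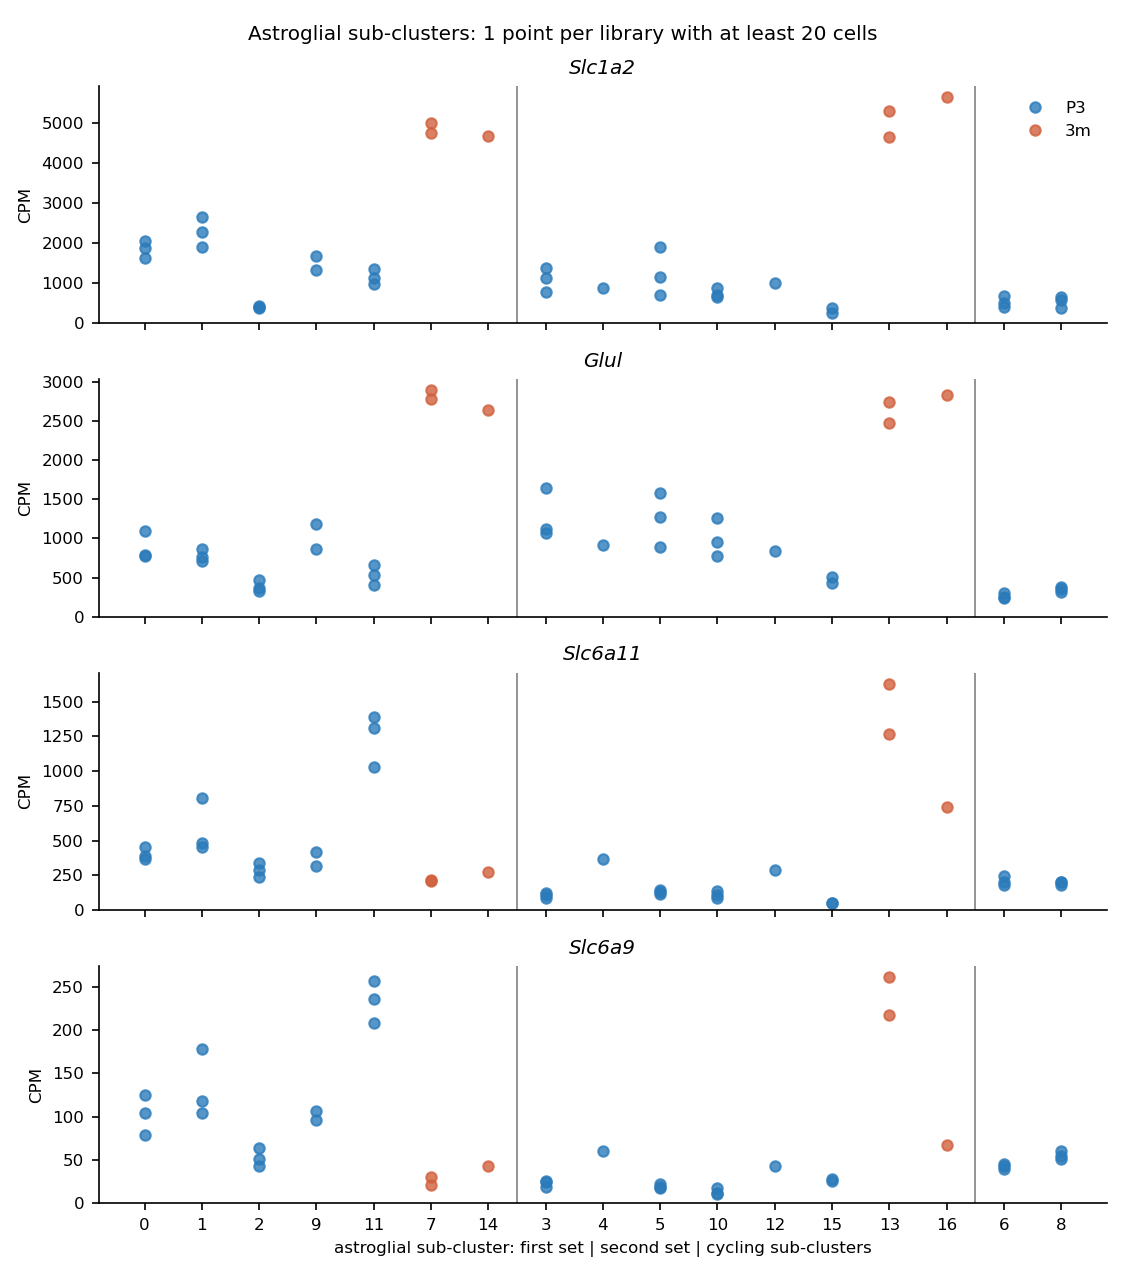
Levels of *Slc1a2*, *Glul*, *Slc6a11* and *Slc6a9*, in CPM, in each astroglial sub-cluster (x axis, in the order first set, second set and cycling sub-clusters), with 1 point per library that has at least 20 cells there. *Slc1a2* and *Glul* are high in every adult sub-cluster, whereas *Slc6a11* and *Slc6a9* are highest in sub-clusters 11 (P3) and 13 (3m).

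Set by set, *Slc6a11* and *Slc6a9* had opposite signs with age. The first set holds the high P3 sub-cluster 11 beside low adult sub-clusters, and the second holds low P3 sub-clusters beside the high adult sub-cluster 13. In the main sub-clusters of the first set given above, both genes were also higher at P3 than at 3m. In the first set *Slc6a9* was 31.1 ± 10.7 CPM at 3m against 102 ± 11.3 CPM at P3 and was called lower (log2 -1.502, SE 0.21, adjusted p = 2.80e-06, edgeR), while *Slc6a11* was 232 ± 32.1 CPM against 431 ± 61.5 CPM (log2 -0.69, SE 0.18, adjusted p = 0.00265, edgeR; short of a call). The libraries of the ages did not overlap for either gene, nor did those of 37.2% of genes tested in that direction and 20.9% in the other. Both log2 differences stayed negative in 3 alternative fits of the first set, including the one without sub-cluster 11. They lay between -1.70 and -1.39 for *Slc6a9* and between -0.90 and -0.53 for *Slc6a11*. *Glul* (log2 2.11) and *Slc1a2* (log2 1.94) were called higher at 3m, and *Slc1a3* was at 0.35 (adjusted p = 0.185, edgeR). Thus 2 of 5 uptake genes were called higher and 1 lower in the first set, against 15.4% and 14.3% (29.6% in all) of 12335 genes tested.

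In the second set 4 of 5 uptake genes were called higher at 3m and none lower, against 15.1% and 14.4% (29.5% in all) of 8822 genes tested. *Slc6a11* stood at 1644, 1417 and 1103 CPM at 3m and at 113, 102 and 161 CPM at P3 (log2 3.74, SE 0.31, adjusted p = 1.36e-11, edgeR). *Slc6a9* stood at 260.5, 183 and 226 CPM at 3m and at 22.6, 20.8 and 28.3 CPM at P3 (log2 3.44, SE 0.25, adjusted p = 5.71e-13, edgeR). *Slc1a2* was higher by 2.72 and *Glul* by 1.52 on the log2 scale, and *Slc1a3* was at 0.56 (adjusted p = 0.169, edgeR). For these 2 genes the ages did not overlap, as for 13.5% of genes tested in that direction and 39.2% in the other. 3m replicate 1 entered this set with 17 cells and 61425 UMIs, of which 3 cells and 22974 UMIs lay outside sub-cluster 16. In 3m replicates 2 and 3, 172 of 261 and 32 of 50 cells lay outside it. The adult libraries of this set thus differed in make-up, and the markers of sub-cluster 16 go against a purely astroglial label. With single libraries left out, *Slc6a11* lay between 3.49 and 3.82 and *Slc6a9* between 3.20 and 3.49 (log2). Without scaling factors the calls of all genes in this set went from 1329 higher and 1274 lower to 898 and 2135.

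The difference between the sets, tested within libraries, was 4.98 on the log2 scale for *Slc6a9* (SE 0.23) and 4.34 for *Slc6a11* (SE 0.20), both with an adjusted p of 2.25e-15 (edgeR). It was 0.70 for *Slc1a2* (adjusted p = 0.0233, edgeR; 0.0757 with the replicate number in place of the library as a term), -0.71 for *Glul* (adjusted p = 0.0157, edgeR) and 0.08 for *Slc1a3* (adjusted p = 0.861, edgeR). Only *Slc6a9* and *Slc6a11* also passed the 2-fold limit, 2 of the 5 uptake genes. Of 10181 genes tested, 8.23% were called larger in the second set and 8.85% smaller (17.1% in all), and 22.3% passed the adjusted p at any size. When sub-cluster 11 was set with 13 in place of the other P3 sub-clusters of the second set, a choice made after their values were seen, the age difference in that pair was 0.57 for *Slc6a11* and 0.23 for *Slc6a9* on the log2 scale. These values are given without a test, since the pair was chosen for its levels of these 2 genes. *Glul* was at 2.26 and *Slc1a2* at 2.04 in that pair, which 3m replicate 1 entered with 3 cells. The differences between sets were then 1.81 for *Slc6a9*, 1.05 for *Slc6a11*, 0.19 for *Glul* and 0.09 for *Slc1a2*. Sub-clusters were drawn from the same counts.

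Cycling was compared within the P3 libraries, between astroglial cells with a UMI in at least 2 of *Mki67*, *Top2a* and *Cdk1* and all others. All 5 tested uptake genes were lower in cycling cells. *Slc1a2* stood at 616, 476 and 435 CPM in cycling and at 1667, 1063 and 1331 CPM in other cells of the same libraries, and *Glul* at 269.6, 294 and 341 against 715, 731 and 1087 CPM. Both were called lower, *Glul* by a log2 difference of -1.37 (SE 0.07, adjusted p = 7.25e-10, edgeR) and *Slc1a2* by -1.31 (SE 0.07, adjusted p = 3.24e-09, edgeR), against 8.06% of 13306 genes tested (8.94% higher, 17% in all). *Slc1a3* was at -0.95, *Slc6a9* at -0.74 and *Slc6a11* at -0.70 (adjusted p of at most 1.03e-06, edgeR), below the 2-fold needed for a call. *Slc1a3* was called at -1.05 without scaling factors and at -1.01 without P3 replicate 2. The libraries of the 2 states did not overlap for any of the 5 genes, as for 27.8% of genes tested in that direction and 18.7% in the other.

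The pseudotime deposited with the data is a score without unit that starts at a cycling sub-cluster. Along it all uptake genes except *Slc1a1* rose late among P3 cells. In the pooled P3 cells *Slc1a2* went from 152 CPM in bin 2 to 666 CPM in bin 7, back to 203 CPM in bin 10 and then to 2227 CPM in bin 14, the last with at least 20 P3 cells. In single libraries bin 10 stood at 237, 170 and 220 CPM and bin 14 at 2104, 2138 and 2388 CPM. The score was drawn from the expression of these same cells, so levels along it are given without a test. *Glul* was 97.1 CPM in bin 2, 211 CPM in bin 10 and 968 CPM in bin 14. *Slc1a3* was 620 CPM in bin 2 and 3088 CPM in bin 14. The GABA and glycine carriers rose within P3 as well. *Slc6a11* was 153 CPM in bin 2, 171 CPM in bin 10 and 427 CPM in bin 14, and *Slc6a9* was 25.3, 30.6 and 121 CPM.

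The adult bins, 15 to 19, lay above bin 14 for *Slc1a2* (lowest 4058, highest 5601 CPM) and *Glul* (lowest 2740, highest 2998 CPM), without a steady course among themselves, but not for the others. *Slc1a3* was between 1711 and 2767 CPM there, below bin 14. *Slc6a11* was 427 CPM in bin 14 and between 168 and 282 CPM in the adult bins, and *Slc6a9* was 121 CPM in bin 14 and between 19.6 and 67.1 CPM in the adult bins. The lowest adult *Slc6a11* value came from 5 UMIs, in bin 15. For *Slc6a9* the lowest came from 5 UMIs in bin 16 and the highest from 2 UMIs in bin 15. The values of bins 15 to 19 are those of 3m cells alone. Bin 15 held 22 adult cells and 9 P3 cells. In these P3 cells *Slc1a2* was 3412 CPM, with 90 of its 161 UMIs from 1 cell, and *Glul* was 1102 CPM. Bins 16 to 19 held no P3 cell, so age and late pseudotime cannot be told apart. Few cells of the sub-clusters highest in *Slc6a11* had a pseudotime, 34 of 307 in sub-cluster 11 and 4 of 202 in sub-cluster 13.

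**Figure D4:**
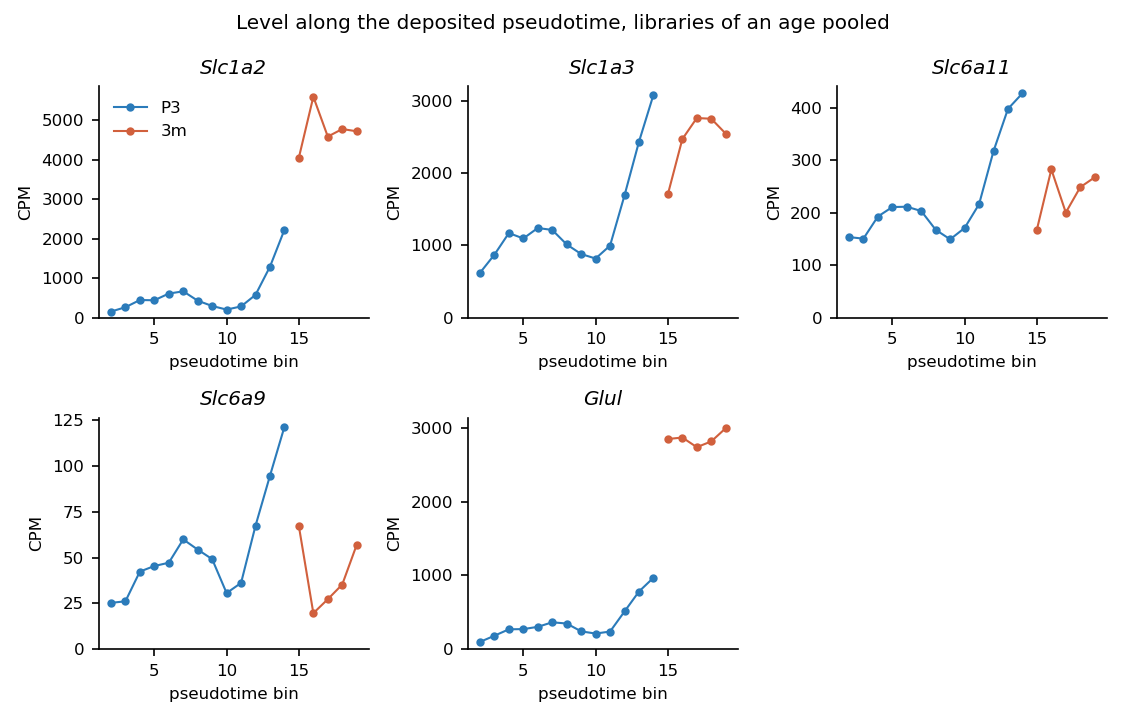
Level of each uptake gene except *Slc1a1*, in CPM over the pooled libraries of an age, against the pseudotime bin, for bins with at least 20 cells. *Slc1a2* and *Glul* step up again between bin 14 (P3) and bin 15 (3m), whereas *Slc6a11* and *Slc6a9* rise to 427 and 121 CPM in bin 14 and are lower in the adult bins.

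Over whole preparations, with all barcodes summed, *Glul* (2075 ± 152 against 559 ± 116 CPM) and *Slc1a2* (2042 ± 82.8 against 835 ± 123 CPM; mean ± SD, n = 3) were again higher at 3m, by 2.09 and 1.49 on the log2 scale (adjusted p = 4.05e-05 and 1.15e-04, edgeR). Of 15407 genes tested, 18.4% were called higher and 16.1% lower (34.5% in all). *Slc1a3* had the opposite sign here: it stood at 931, 1012 and 978 CPM at 3m and at 1469, 1528 and 1537 CPM at P3 (log2 -0.44, SE 0.16, adjusted p = 0.0391, edgeR). *Slc6a9* was higher by 0.94 (SE 0.13, adjusted p = 4.04e-04, edgeR), just short of a call, and was 1.01 and called without 3m replicate 3. The ages did not overlap for *Glul*, *Slc1a2*, *Slc1a3* and *Slc6a9*, as for 26.3% of genes tested toward higher and 38.4% toward lower at 3m. *Slc6a11* and *Slc1a1* were at 0.40 and 0.46 (adjusted p = 0.141 and 0.338, edgeR). In such sums fewer cells of a type and less RNA per cell cannot be told apart. The astroglial share of UMIs and the oligodendrocytes, present only at 3m, moved with age as well. Barcodes outside the annotation also entered these sums. The annotation held 3185 of 4730 barcodes at 3m and 11188 of 11960 at P3. With barcodes past the cell filter alone, the difference of *Slc6a11* changed sign.

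Related genes were taken from 9 lists of 54 genes for transport and metabolism of the same amino acids. Of the 44 tested in astroglial cells, 10 were called higher at 3m and 9 lower, beside 15.8% and 16.3% of all genes tested, with a median log2 difference of 0.13 against -0.04 over all genes. Among glutamine and cystine carriers all 5 tested genes were called, 3 higher and 2 lower. *Slc38a3*, the glutamine carrier of astrocytes, rose from 103 ± 11.1 to 221 ± 9.20 CPM (log2 1.29, adjusted p = 2.42e-05, edgeR). *Slc7a11* and *Slc3a2*, which together form the cystine-glutamate exchanger, rose by 1.49 and 1.12. *Slc38a2* and *Slc38a1*, further amino acid carriers, fell by 2.83 and 1.99 on the log2 scale, from 61.2 to 7.01 CPM and from 12.1 to 2.26 CPM.

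Of the 9 tested enzymes of glutamate and glutamine, 1 rose and 4 fell, with a median of -0.83. *Gpt*, an alanine aminotransferase, rose from 3.79 ± 1.12 to 28.6 ± 1.56 CPM (log2 3.11, adjusted p = 4.40e-07, edgeR). *Aldh18a1*, of proline synthesis, fell by 1.97, *Got2*, the mitochondrial aspartate aminotransferase, by 1.16, and *Glud1*, glutamate dehydrogenase, by 1.08 (from 1426 ± 372 to 584 ± 26.5 CPM). *Got2* and *Glud1* were not called without P3 replicate 3, at -0.91 and -0.92, nor was *Slc3a2* without 3m replicate 1 (0.89) or *Slc38a1* without 3m replicate 3 (-1.75, adjusted p = 0.062, edgeR). Of the 4 mitochondrial glutamate carriers 1 fell, and none of the 3 tested further SLC1 carriers was called.

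Of the GABA enzymes, 2 of 5 rose and none fell. *Maob*, a monoamine oxidase used in an astrocytic route to GABA, rose from 9.01 ± 2.94 to 73.3 ± 7.15 CPM (log2 3.21, adjusted p = 1.70e-07, edgeR). Of 10 enzymes of glycine and serine, *Gldc* of the glycine cleavage system rose by 1.37, 2 fell, among them *Shmt2* by 1.36, and 7 were not called. Of 6 sodium pump subunits, which maintain the gradient that drives uptake, 2 rose, among them *Atp1b2* by 2.13 (from 312 ± 26.9 to 1199.5 ± 160 CPM), and 4 were not called. None of the 4 vesicular carriers of glutamate and GABA passed the filter on low counts.

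**Figure D5:**
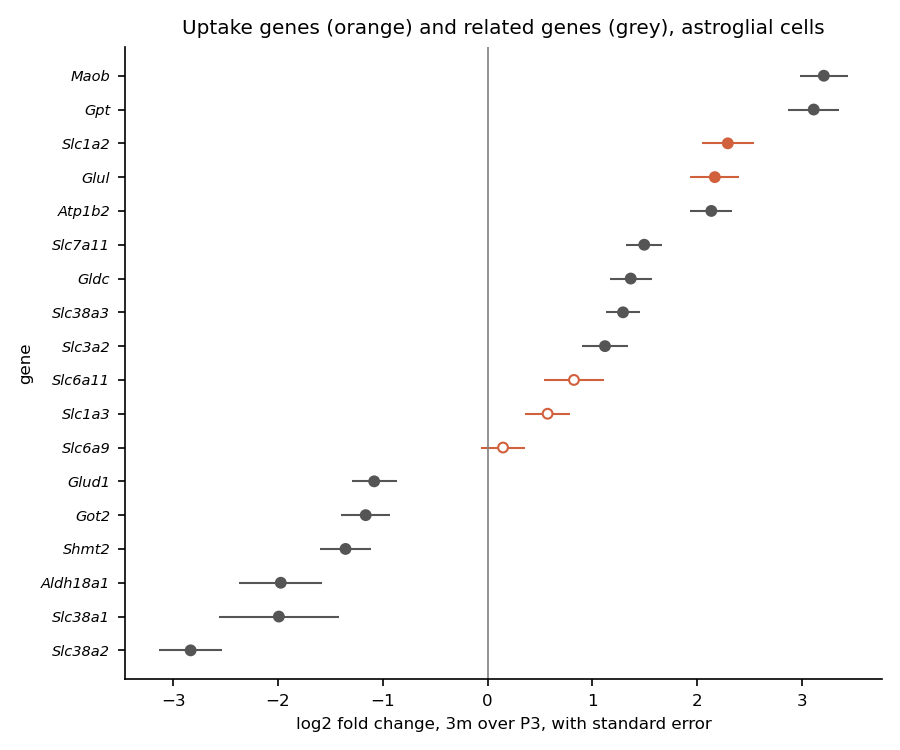
Log2 fold change of 3m over P3 in astroglial cells (x axis) with its standard error, for the tested uptake genes (orange) and the related genes named in the text (grey). Filled points were called and open ones were not; *Slc1a2* and *Glul* lie at 2.29 and 2.17, near *Atp1b2* (2.13).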

How the data were processed

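The deposited table held raw UMI counts of 32285 genes and 16690 barcodes. The authors mapped reads to mm10 and counted UMIs with Cell Ranger, then merged the 6 libraries in Seurat. The deposited annotation, also by the authors, gave clusters, astroglial sub-clusters, a pseudotime score (Slingshot) and its bins, for barcodes above 500 detected genes and below 10% mitochondrial reads. No doublet caller was run here.

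Cells are not replicates, so counts were summed per library. CPM are UMIs per 1000000 UMIs of the same sum. Tests were two-sided edgeR quasi-likelihood tests (edgeR 4.0.16, R 4.3.3) with TMM scaling, filterByExpr and Benjamini-Hochberg adjustment over all genes tested, and calls needed both an adjusted p of 0.05 or less and a log2 difference of 1 or more in size. Age was the only term, library was a term for cycling cells and for the difference between sets, and scripts were tested on simulated data. Shares were compared by exact permutation tests (scipy 1.17.1). A library enters a cluster or bin with at least 20 cells, while the sums of the sub-cluster sets had no such limit. Alternatives included DESeq2 1.42.0, other scaling, filters and cells, and leaving out libraries.

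The uptake genes were chosen by name. At most 3 called genes each way per related list were named, those with the largest change and at least 10 CPM at the higher age, and the 3 genes most alike per uptake gene. Some genes that met this rule are not reported here. Genes and lists were chosen with earlier results of these data known. Precision is limited by the 3m sums, of 1157485 to 1843998 astroglial UMIs against 22327104 to 30617140 at P3; errors from counting cover counting only.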

Additional observations from a re-analysis of the deposited data

Results flagged for a closer look

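The age change of 4 uptake genes differed between the first set of astroglial sub-clusters (0, 1, 2, 9, 11, 7 and 14) and the second (3, 4, 5, 10, 12, 15, 13 and 16) in the edgeR test of that difference (adjusted p of 0.05 or less, at any size), which 22.3% of all 10181 genes tested passed. On the log2 scale the change in the second set minus that in the first was 4.98 for *Slc6a9* and 4.34 for *Slc6a11*, which were higher at 3m in the second set and lower in the first, with no overlap of libraries in either. It was 0.70 for *Slc1a2* and -0.71 for *Glul*, which were higher at 3m in both sets, and the adjusted p of *Slc1a2* was 0.0757 with the replicate block in place of the library term (edgeR). With sub-clusters 11 and 13 as the second set, a choice made after their values were seen, the differences were 1.81, 1.05, 0.09 and 0.19 in the same order.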

How the results depend on the processing

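Of 698 alternative values, 652 kept their direction and side of the threshold, or stayed within the spread of the libraries or 1.5 times a count, and the calls of *Slc1a2* and *Glul* in astroglial cells held in all 16 alternatives. For those that did not, the cause was not tested. In astroglial cells *Slc6a9* turned from 0.15 to -0.051 without scaling, -0.28 under a stricter cell filter and between -0.23 and 0.26 with single libraries left out (log2). In whole preparations *Slc6a11* was -0.51 with barcodes past the cell filter alone, and *Slc6a9* lay between 0.81 and 1.01 with libraries left out. *Slc1a3* in cycling cells was -1.05 without scaling and between -1.01 and -0.90 with libraries left out, and its difference between sets lay between -0.16 and 0.17. With sub-clusters 11 and 13 as the second set, chosen after seeing the data, the age change there was 0.57 for *Slc6a11*, 0.23 for *Slc6a9* and -0.019 for *Slc1a3*, and the difference between sets was -0.40 for *Slc1a3* and 0.19 for *Glul*.

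Genes called higher at 3m numbered 1322 under the stricter filter and those called lower 1284 with sums thinned to the smallest library. Related genes called lower numbered 2 with thinned sums, 5 under the stricter filter and between 5 and 12 with libraries left out. Differences in the share of cells, in percentage points, were as follows with 1000 UMIs, 3000 UMIs and no thinning: 38.8, 17.9 and 8.41 for *Slc1a2*, 41.5, 19.8 and 8.49 for *Glul*, and 0.062, 0.014 and -0.18 for *Slc1a1*. For *Slc1a3* they were 4.84 with 1000 UMIs and -1.68 without thinning, and without thinning -15.3 for *Slc6a11* and -21.6 for *Slc6a9*. Without cycling sub-clusters they were 22.7 for *Glul*, 1.23 for *Slc1a3* and -0.075 for *Slc1a1*.

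Replicate numbers are shared between ages. Same-numbered libraries deviated together by r = 0.206, 0.0993 and 0.039, and differently numbered ones by between -0.173 and 0.142. The numbers were not taken to pair libraries in the main fits, and a replicate block was an alternative. With the replicate block, 2156 genes were called higher and 2264 lower in astroglial cells, *Slc1a2* was 2.31 and *Glul* 2.19, and no call of an uptake gene changed. The difference between sets for *Slc1a2* had an adjusted p of 0.0757 (edgeR) with the block in place of the library term. Depth limits *Slc1a1*, with 35 UMIs in all astroglial cells, and the second set at 3m, with 17 cells in replicate 1. Of those 17 cells, 3 lay outside sub-cluster 16.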
